A study of Mus musculus with 24 samples.

Results

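The MyoD response of LncMyoD knockout clone 1 (KO1) was set against that of wild-type (WT) C3H 10T1/2 cells, fibroblast-like cells of mouse embryo origin, in polyA RNA. The libraries were chosen by their labels alone, as every library of these 2 lines: 16 of the 24 in the series. KO1 had 2 libraries each of cells infected with MyoD adenovirus, of cells given the virus and a LncMyoD plasmid, of cells given the plasmid alone and of untreated cells. WT had the same 4 groups with 2 libraries each. The quantity described is a difference of responses, (KO1 with MyoD minus KO1 without) minus (WT with MyoD minus WT without), with 4 libraries in each of the 4 sets and the plasmid as a block. A negative difference means that MyoD raised a gene less, or lowered it more, in KO1 than in WT.

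The knockout line is 1 clone, so clone and genotype cannot be told apart. An empty virus or plasmid is named for none of the groups, and the labels change the medium from 10% fetal bovine serum to 2% horse serum with transdifferentiation, so infection, medium and MyoD cannot be told apart within a line. The labels do not say that replicates were separate cultures. The p-values therefore measure only the spread between these libraries, which may be technical.

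MyoD is a basic helix-loop-helix transcription factor that binds E-box motifs together with E proteins and can turn fibroblasts into muscle cells. It switches on Myog, the gene of the differentiation factor myogenin, and with it the genes of the sarcomere, of calcium handling, of the nerve-muscle junction and of cell fusion. LncMyoD is a long noncoding RNA made beside Myod1 and induced by MyoD in mouse myoblasts, where it is known for its part in terminal differentiation. Igf2, a growth factor, and H19, a noncoding RNA, are neighbouring imprinted genes that rise when myoblasts differentiate.

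Gene levels are TPM, a unit that gives abundance per transcript length as a share of a library. They were summed over transcripts that carry the gene's reference name, scaled between libraries by the median of ratios, and compared on log2(scaled TPM + 1), which understates the change of genes near 0. The authors' files hold no read counts, so a value of 0 means listed at 0 and no limit can be set on it. A second value, exon coverage, counts all assembled coverage on a gene's annotated exons, whether or not the transcript got the gene's name, in the same unit. It was added after the data were seen, because many genes listed at 0 had such coverage. Among the 7059 genes tested, 836 to 1727 were listed at 0 per library in KO1 with MyoD, 701 to 1215 in KO1 without, 307 to 556 in WT with MyoD and 345 to 459 in WT without. By exon coverage these numbers were 214 to 485 in KO1 with MyoD, 170 to 373 in KO1 without, 91 to 200 in WT with MyoD and 130 to 143 in WT without. The part of this imbalance in the results given as TPM was not tested. The second value is given beside the TPM result for the named genes.

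Aligned sequence was 2.43 to 4.63 gigabases in KO1 with MyoD and 3.055 to 5.10 in KO1 without. WT had 4.82 to 5.79 with MyoD and 4.40 to 5.92 without. Every KO1 library with MyoD was thus shallower than every WT library with MyoD. The part of depth in the differences was not tested. Transcripts of the ribosomal RNA repeat window took 36.8 to 70.0% of TPM in KO1 and 55.6 to 69.2% in WT. Replicate libraries correlated at 0.763 to 0.880 (Pearson, log2 values), and KO1 replicate 1 with MyoD alone stood apart, with the 36.8%. In that library, transcripts outside the window without a reference name took 54.0% of TPM, against 20.6 to 31.7% in the other KO1 and WT libraries. Such transcripts do not enter the TPM gene values. All 9 fibroblast markers of a list were at 1 scaled TPM or more in at least 4 libraries. The 8 skeletal muscle markers summed to 0.0242 to 9.20 scaled TPM in KO1 with MyoD and 17.2 to 21.9 in WT with MyoD, against 0 in all libraries without MyoD. At the LncMyoD locus an unnamed transcript was assembled in 8 of 8 plasmid libraries, at 16.8 to 53.3 TPM in KO1 and 2.64 to 8.16 TPM in WT. None was assembled in the 8 libraries without plasmid, WT with MyoD included, so these files do not check the knockout.

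Myod1 itself (chr7:46376474-46379099, mm10) was abundant in both infected lines. Its scaled TPM was 2056, 2922, 3213 and 3810.5 in KO1 with MyoD and 3.60, 4.68, 4.35 and 3.41 in KO1 without. WT had 2643, 2569.9, 2859 and 3415 with MyoD and 2.55, 2.15, 2.31 and 2.54 without. In these and all later lists, the first 2 values are libraries without plasmid and the last 2 with it. The infected libraries of the 2 lines overlapped, while every uninfected KO1 library was above every uninfected WT library. The log2 response was 9.20 ± 0.16 in KO1 and 9.72 ± 0.16 in WT (SE). The difference of -0.52 ± 0.22 had an unadjusted p of 0.0339 and an adjusted p of 0.756 (limma, Benjamini-Hochberg over all genes tested), and under quantile scaling its sign turned, to 0.36. By exon coverage it was -0.47 ± 0.20 (adjusted p = 0.681).

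**Figure D1:**
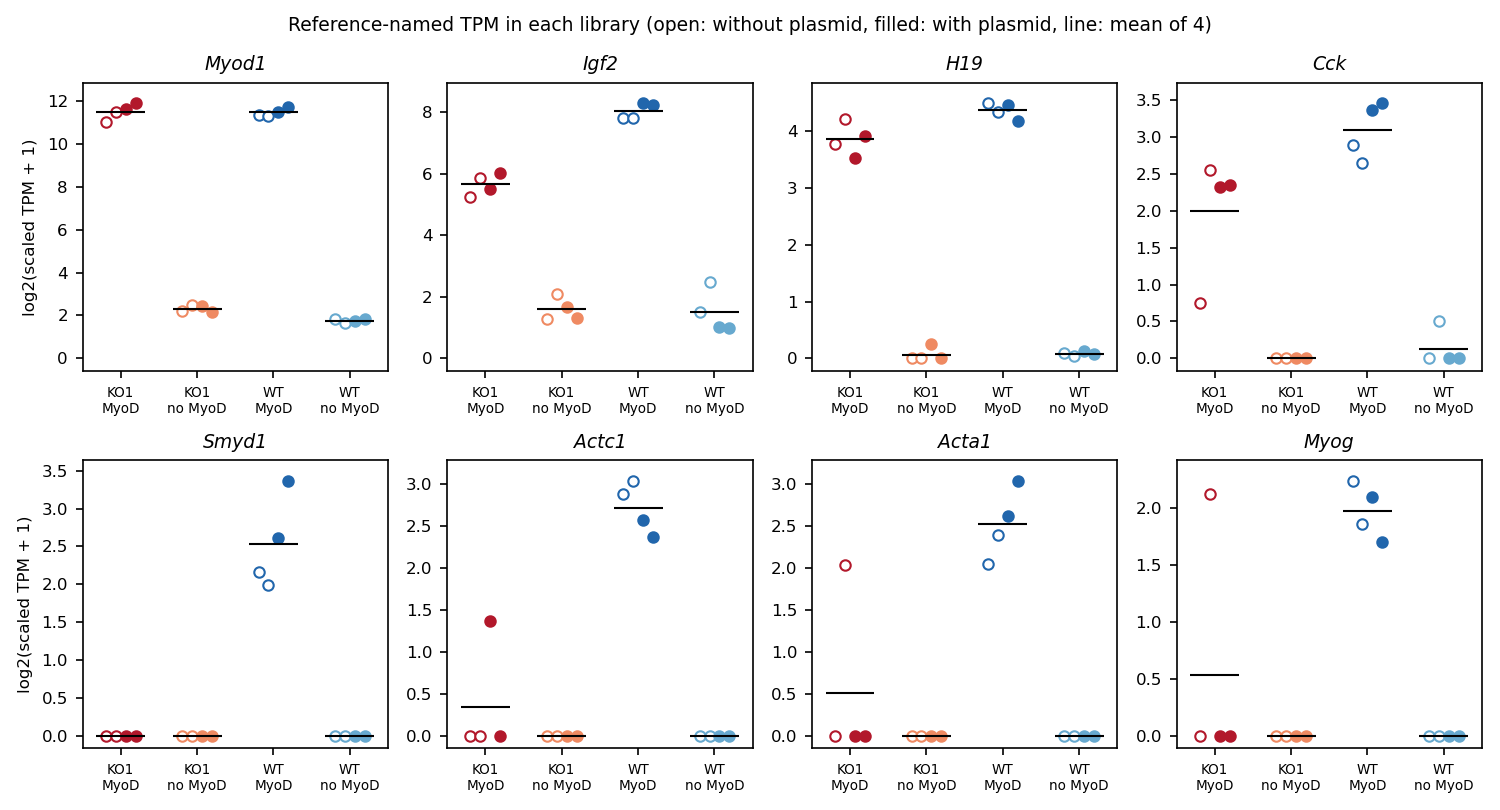
Reference-named TPM of 8 genes in each of the 16 libraries (y axis, log2 of scaled TPM + 1), in KO1 with MyoD, KO1 without, WT with MyoD and WT without, with the mean of each set as a line. Myod1 reached the same range in both infected lines, Igf2 was lower in every infected KO1 library than in any infected WT library, and Smyd1, Actc1, Acta1 and Myog were listed at 0 in 3 or 4 of the infected KO1 libraries.

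Of the 7059 genes tested, 2 differed between the responses (0.0283%; adjusted p under 0.05 and a log2 difference of at least 1, limma). Both were lower in KO1 and none was higher. Both, Smyd1 and Gm49394, passed the level filter only through the 4 libraries of WT with MyoD, where they were high, so that they differ by TPM is partly fixed by the filter. At an unadjusted p under 0.05 there were 439 genes (6.22%), 158 higher and 281 lower, and the median over all genes was -0.08. Leaving out 1 library at a time gave 1 to 6 calls, with 6 without KO1 replicate 1 with MyoD alone, 5 without replicate 2 of that group and 4 without WT replicate 2 with MyoD and plasmid. The MyoD response called 17 genes in KO1 (0.241%), 6 higher (0.085%) and 11 lower (0.156%), and 21 genes in WT (0.297%), all higher. The KO1 count was 29 without KO1 replicate 2 with MyoD alone, and its split was 3 higher and 3 lower with TPM as deposited, 5 and 3 under quantile scaling, and 9 and 7 with ribosomal and mitochondrial genes left out. Both lines called 4 genes, Myod1, Igf2, H19 and Cck, which are 23.5% of the KO1 calls and 19% of the WT calls. All 21 genes called in WT had a difference below 0, but the same WT libraries entered both values, so that direction is partly fixed by the choice. By exon coverage the difference had 2 calls of 7824 genes tested (0.0256%), Igf2 and an overlapping gene, both lower.

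Smyd1 (chr6:71213940-71322233) codes for a histone methyltransferase of striated muscle that is needed for myofibril assembly. It was listed at 0 in all 4 KO1 libraries with MyoD and in all 8 uninfected libraries. WT with MyoD had 3.49, 2.97, 5.14 and 9.34 scaled TPM, so the infected lines did not overlap. The difference was -2.54 ± 0.36 (adjusted p = 0.0180, limma). With a pseudocount of 5 it was -0.994 and not called (adjusted p = 0.0895), and a filter at 5 TPM left the gene out. By exon coverage the KO1 libraries with MyoD had 0, 0.355, 2.01 and 1.47 and those of WT 2.51, 2.17, 3.62 and 6.56. The infected lines still did not overlap, but the difference was -1.27 ± 0.37 and was no longer called (unadjusted p = 0.00356, adjusted p = 0.576). By TPM the adjusted p was 0.0501 to 0.0801, and the call was lost, in the fits without either KO1 or either WT library with plasmid alone or without replicate 1 of untreated WT.

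Igf2 (chr7:142650766-142666816) responded to MyoD in both lines and less in KO1. Its scaled TPM was 36.5, 57.0, 44.2 and 63.9 in KO1 with MyoD and 226, 224, 312 and 302 in WT with MyoD. Without MyoD it was 1.40, 3.27, 2.20 and 1.5 in KO1 and 1.82, 4.61, 1.03 and 0.993 in WT. Every infected KO1 library was below every infected WT library, while the uninfected lines overlapped. The means with MyoD were 50.4 ± 12.3 in KO1 and 265.7 ± 47.5 in WT (SD, n = 4 each). The log2 response was 4.06 ± 0.31 in KO1 and 6.54 ± 0.31 in WT, both called. The difference of -2.48 ± 0.44 missed the threshold by TPM (adjusted p = 0.0930) and passed it by exon coverage (-2.53 ± 0.35, adjusted p = 0.00736, limma). With a pseudocount of 5 it passed by TPM (-2.32, adjusted p = 0.00208, limma), as it did with all 24 libraries (-2.52, adjusted p = 0.0177). By TPM it was also called in the fit without WT replicate 2 of the untreated cells (-2.82, adjusted p = 0.00624).

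The other call by TPM was Gm49394 (chr7:142650769-142669942), a gene model on the same strand that spans nearly all of Igf2 and was named after its values were seen. It was listed at 0, 0.937, 0 and 0 in KO1 with MyoD and at 14.5, 11, 23.2 and 19.7 in WT with MyoD, and at 0 in all uninfected libraries. The difference was -3.89 ± 0.41 (adjusted p = 0.000943). The call was lost with ribosomal and mitochondrial genes left out (adjusted p = 0.0816), a pseudocount of 0.1 (0.0520), a filter at 5 TPM (0.0705) and within either plasmid arm (0.182 with plasmid and 0.461 without). By exon coverage, which is nearly that of Igf2, MyoD raised it by 3.89 in KO1 and 6.51 in WT, and the difference was -2.62 ± 0.36 (adjusted p = 0.00736). Reads over the shared exons cannot be assigned to 1 of the 2 genes, so its call is not separate from Igf2. H19 (chr7:142575529-142578143), downstream of Igf2, had 12.7, 17.7, 10.5 and 14.1 scaled TPM in KO1 with MyoD and 21.5, 19.3, 21.0 and 17.2 in WT with MyoD. The highest KO1 value lay above the lowest WT value. Without MyoD, H19 was at most 0.188 in KO1 and 0.0908 in WT. Its difference was -0.49 ± 0.30 (adjusted p = 0.871), and by exon coverage -0.30 ± 0.21.

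The 300-base promoter windows of Smyd1, Igf2 and 3 muscle genes whose differences were below 0 but not called are shown because MyoD is known to act through E-boxes. They come from RefSeq (GRCm38.p6, the build of mm10), run 5′ to 3′ on the gene's strand from 250 bases before the start to 50 after it, and have each E-box CANNTG in capitals. The motif is its own reverse complement, so both strands are covered. Igf2 is shown at the 1 start that the table gives for it.
Smyd1, chr6:71262232-71262531, minus strand: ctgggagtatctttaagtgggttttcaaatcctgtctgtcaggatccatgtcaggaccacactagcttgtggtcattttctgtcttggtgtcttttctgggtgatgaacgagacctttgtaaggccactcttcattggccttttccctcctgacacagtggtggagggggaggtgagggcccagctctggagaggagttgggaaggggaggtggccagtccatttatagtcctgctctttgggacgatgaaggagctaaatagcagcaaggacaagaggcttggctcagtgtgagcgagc
Igf2, chr7:142657447-142657746, minus strand: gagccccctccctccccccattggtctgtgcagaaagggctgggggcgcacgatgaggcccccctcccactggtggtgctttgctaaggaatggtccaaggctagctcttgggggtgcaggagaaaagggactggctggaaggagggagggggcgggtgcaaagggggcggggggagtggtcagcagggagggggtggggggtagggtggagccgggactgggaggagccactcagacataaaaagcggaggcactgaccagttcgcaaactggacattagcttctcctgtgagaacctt
Actc1, chr2:114052826-114053125, minus strand: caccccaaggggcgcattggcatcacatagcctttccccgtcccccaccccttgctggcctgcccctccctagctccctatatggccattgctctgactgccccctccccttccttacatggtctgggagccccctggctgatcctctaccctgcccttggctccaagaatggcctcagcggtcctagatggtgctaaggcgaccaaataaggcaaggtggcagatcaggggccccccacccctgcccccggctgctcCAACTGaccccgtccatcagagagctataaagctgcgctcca
Acta1, chr8:123894726-123895025, minus strand: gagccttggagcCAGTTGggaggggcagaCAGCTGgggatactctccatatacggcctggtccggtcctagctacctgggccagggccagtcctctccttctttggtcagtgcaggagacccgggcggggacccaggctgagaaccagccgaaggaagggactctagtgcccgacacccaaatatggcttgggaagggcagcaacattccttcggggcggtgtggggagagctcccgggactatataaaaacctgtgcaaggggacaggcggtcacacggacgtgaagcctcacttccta
Myog, chr1:134289754-134290053, plus strand: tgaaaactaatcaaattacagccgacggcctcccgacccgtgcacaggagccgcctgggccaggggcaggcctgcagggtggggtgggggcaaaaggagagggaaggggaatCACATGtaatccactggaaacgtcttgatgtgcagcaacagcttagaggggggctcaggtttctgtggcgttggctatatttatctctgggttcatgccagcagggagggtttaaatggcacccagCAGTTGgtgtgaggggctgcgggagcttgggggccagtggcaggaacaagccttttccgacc

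The Smyd1 and Igf2 windows held no CANNTG. The Actc1 window held 1, 8 bases after the start, and the Acta1 window held 2, of which 1 was CAGCTG, 221 bases before the start. Myog held 2, at 138 and 12 bases before its start. Of 12 genes looked up, 9 had a window, and 5 of the 9 held CANNTG, against 72.3% of all 32817 windows. The core CAGCTG, which is part of CANNTG, was in 2 of the 9, against 16.3% of all windows, and CAGGTG, read on both strands, in 1 of the 9, against 20.2%. These are descriptions of 1 short window a gene.

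Of the 55 genes of a sarcomere list, 11 passed the level filter and none was called. At an unadjusted p under 0.05, 4 were lower and 0 higher in KO1, beside 3.98% lower and 2.24% higher over all genes. The list's median difference was -0.45 by TPM and -0.29 by exon coverage over 14 members, beside -0.08 and -0.03 over all genes. Of the 4, Actc1, Acta1 and Smpx needed the libraries of WT with MyoD, where they were high, to pass the level filter. Their direction is thus partly fixed by the filter. Other members, such as Tpm2 and Ldb3, passed it through libraries without MyoD too. These medians and counts describe the list and support nothing. Bulk RNA cannot tell a change in the number of muscle cells from a change in muscle RNA per cell, and neither was tested.

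Actc1 (chr2:114047282-114053548), the actin of heart and embryonic skeletal muscle, was listed at 0, 0, 1.57 and 0 in KO1 with MyoD and at 6.35, 7.21, 4.91 and 4.14 in WT with MyoD. It was listed at 0 in every uninfected library. The infected lines did not overlap, and the difference was -2.37 ± 0.43 (adjusted p = 0.0930). By exon coverage it was 0.381, 0.981, 1.45 and 1.51 in KO1 and 5.67, 6.45, 4.35 and 3.64 in WT, again without overlap. That difference was -1.62 ± 0.31 (adjusted p = 0.0899). With TPM as deposited the difference was -2.7 and was called (adjusted p = 0.0366, limma). Actc1 was called in the fit without KO1 replicate 1 with MyoD and plasmid, the library with the 1.57 (adjusted p = 0.00215).

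Acta1 (chr8:123891769-123894751), the actin of adult skeletal muscle, was listed at 0, 3.10, 0 and 0 in KO1 with MyoD and at 3.15, 4.26, 5.15 and 7.25 in WT with MyoD. Exon coverage gave 0.471, 2.97, 1.48 and 0.841 in KO1 and 2.91, 4.40, 4.95 and 6.58 in WT. The lines stood apart by TPM and overlapped by 1 KO1 library by exon coverage. The difference was -2.02 ± 0.56 by TPM and -1.29 ± 0.38 by exon coverage, neither called (adjusted p = 0.466 and 0.576). By TPM it was called without KO1 replicate 2 with MyoD alone, the library with the 3.10 (-2.57, adjusted p = 0.0108). Smpx, a small protein of the muscle cytoskeleton, differed by -1.87 ± 0.57 and Ldb3, a Z-disc protein, by -1.42 ± 0.54, with adjusted p-values of 0.576 and 0.693. By exon coverage these differences were -1.03 ± 0.46 and -0.48 ± 0.33, and infected KO1 libraries had 3.93, 8.38, 5.99 and 10.5 for Ldb3, against 5.14, 5.27, 7.20 and 3.89 in WT with MyoD, which overlapped.

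Other sarcomere genes had smaller differences. Tpm2, a tropomyosin, had 12.4, 20.4, 16.9 and 11 scaled TPM in KO1 with MyoD and 35.2, 28.8, 49.5 and 48.9 in WT with MyoD. Its levels without MyoD were 4.84, 8.53, 4.39 and 7.10 in KO1 and 9.08, 15.0, 11.6 and 14.3 in WT, so KO1 started lower. The difference was -0.45 ± 0.37 by TPM and -0.09 by exon coverage, and by exon coverage MyoD raised Tpm2 in both lines, by 1.16 in KO1 and 1.25 in WT. Myl1, a fast myosin light chain, rose in both lines by exon coverage too, by 1.12 in KO1 and 1.63 in WT. Its difference was -1.05 ± 0.53 by TPM, where it was called in WT and not in KO1, and -0.51 by exon coverage, neither called. Ttn, the giant spring protein titin, gave different answers by the 2 values. Its difference was -0.05 ± 0.55 by TPM, with a sign that turned under quantile scaling (0.24), and -0.55 ± 0.27 by exon coverage. In exon coverage it had 0.766, 0.715, 0.338 and 0.403 in KO1 with MyoD and 1.27, 1.09, 1.16 and 1.44 in WT with MyoD, without overlap.

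**Figure D2:**
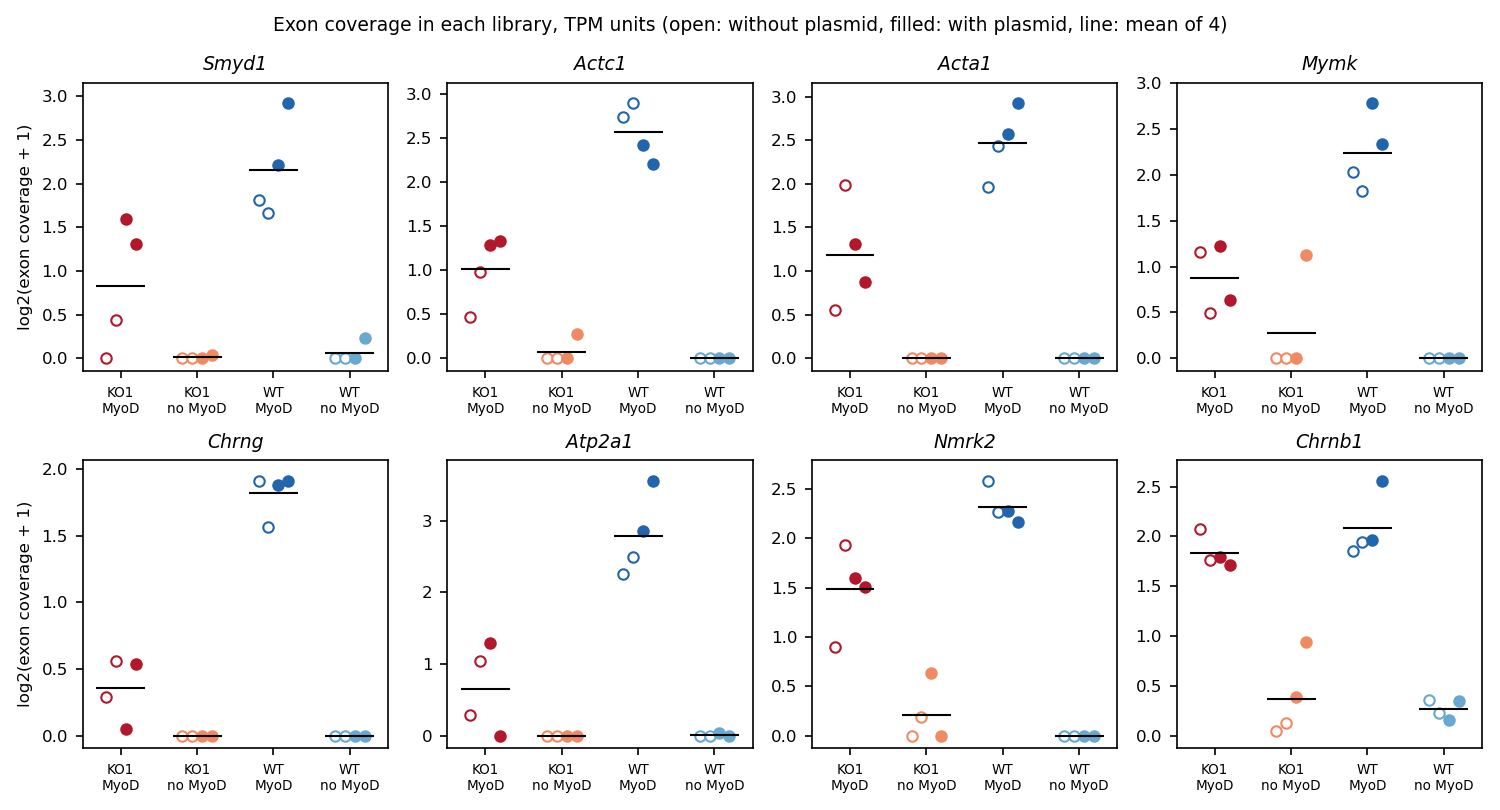
Exon coverage of 8 muscle genes in each of the 16 libraries (y axis, log2 of scaled coverage in TPM units + 1), in KO1 with MyoD, KO1 without, WT with MyoD and WT without, with the mean of each set as a line. Infected KO1 libraries lay below WT with MyoD throughout for Smyd1, Actc1, Mymk, Chrng, Atp2a1 and Nmrk2, and overlapped it for Acta1 and Chrnb1.

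Among 31 myogenic regulators, 12 were tested and 1, Smyd1, was called, beside 0.0283% of all genes. Smyd1 passed the level filter only through WT with MyoD, so its call says nothing about the list. Myog (chr1:134289989-134292548) was listed at 0, 3.38, 0 and 0 in KO1 with MyoD and at 3.74, 2.63, 3.29 and 2.26 in WT with MyoD, and at 0 in all uninfected libraries. One KO1 library was thus inside the WT range and 3 were at 0. The response was called in WT (1.98 ± 0.38, adjusted p = 0.0378) and not in KO1 (0.53 ± 0.38, adjusted p = 0.689). The difference itself was -1.45 ± 0.54 (adjusted p = 0.688), and by exon coverage -1.21 ± 0.49. Without KO1 replicate 2 with MyoD alone, the library with the 3.38, it was -1.99 with an adjusted p of 0.0193. Tcf3, whose E proteins pair with MyoD, differed by 0.85 ± 0.59, and by 0.61 ± 0.26 by exon coverage. Mef2c, a partner of myogenin, stayed under the level filter, with at most 0.932 scaled TPM in KO1 with MyoD and 0.264 in WT with MyoD. Untreated KO1 replicate 1 had 2.33, and 0.146 by exon coverage.

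Genes of calcium handling and of the nerve-muscle junction were mostly below the filter by TPM, where 3 of 31 were tested and none was called. By exon coverage 8 were tested and none was called. At an unadjusted p under 0.05, 4 were lower and 0 higher in KO1, beside 4.17% lower and 2.54% higher of all genes. Atp2a1, the calcium pump of fast muscle, had exon coverage of 0.221, 1.06, 1.46 and 0 in KO1 with MyoD and 3.78, 4.62, 6.25 and 10.8 in WT with MyoD. Chrng, the fetal subunit of the muscle acetylcholine receptor, had 0.222, 0.475, 0.0343 and 0.455 in KO1 and 2.77, 1.96, 2.69 and 2.76 in WT. Neither gene overlapped between the infected lines. The differences were -2.12 ± 0.41 and -1.46 ± 0.27, and both missed the threshold with an adjusted p of 0.0899. Both genes are among the 4 and needed the libraries of WT with MyoD, where they were high, to pass the level filter. Their direction is thus partly fixed by the filter, and the count of 4 supports nothing about the list. Chrnb1, the beta subunit of the same receptor, was different: MyoD raised it in KO1 by 1.46 and in WT by 1.81 (adjusted p = 0.00328 and 0.000109). It had 3.20, 2.40, 2.46 and 2.27 in KO1 with MyoD and 2.61, 2.86, 2.90 and 4.90 in WT with MyoD, which overlapped, and its difference was -0.35 (adjusted p = 0.904).

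Of 24 genes of cell fusion and the muscle membrane, 7 were tested and none was called. At an unadjusted p under 0.05, 2 were lower, Mymk and Itga7, beside 3.98% of all genes. Both needed the libraries of WT with MyoD, where they were high, to pass the level filter. Their direction is thus partly fixed by the filter, and the count supports nothing about the list. The list's median was -0.74 by TPM and -0.10 by exon coverage. Mymk (chr2:27061636-27072179), the fusion protein myomaker, was listed at 0, 0, 1.45 and 0 in KO1 with MyoD and at 3.44, 1.74, 6.60 and 4.60 in WT with MyoD. The difference was -1.93 ± 0.44 by TPM and -1.65 ± 0.37 by exon coverage (adjusted p = 0.236 and 0.238). Itga7 (chr10:128933818-128958282), the integrin by which muscle fibres hold laminin, had 0.174, 0.0421, 0.0441 and 0.0714 in KO1 with MyoD and 2.05, 1.76, 5.10 and 3.25 in WT with MyoD. It also did not overlap, and differed by -2.07 ± 0.37 (adjusted p = 0.0930) and, by exon coverage, by -1.34 ± 0.39. By exon coverage the uninfected KO1 libraries reached 1.42, above all 4 infected ones.

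Muscle energy metabolism had 6 of 24 genes tested, all with a difference below 0, beside 55.3% of all genes, and none called. Aldoa, a glycolytic aldolase, had 189.9, 277, 342 and 404 scaled TPM in KO1 with MyoD and 337, 273, 303 and 281 in WT with MyoD. Without MyoD it had 376, 372, 375 and 436 in KO1 and 235, 308, 123 and 243 in WT, so the uninfected lines differed and the infected ones overlapped. Its difference was -0.88 ± 0.36 by TPM and -0.49 ± 0.23 by exon coverage (adjusted p = 0.736 and 0.727). Nmrk2, a muscle kinase of the NAD pathway, was seen by exon coverage at 0.859, 2.80, 2.03 and 1.84 in KO1 with MyoD and 4.99, 3.80, 3.83 and 3.47 in WT with MyoD. MyoD raised it in both lines by exon coverage, by 1.28 in KO1 and 2.32 in WT, and the difference of -1.04 ± 0.32 was not called (adjusted p = 0.576).

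Cck, the gene of the peptide cholecystokinin, is not a contractile gene and was called in both lines. It had 0.684, 4.88, 4.01 and 4.09 scaled TPM in KO1 with MyoD and 6.44, 5.28, 9.37 and 10.0 in WT with MyoD, and at most 0.417 in any uninfected library. The infected lines did not overlap, but the difference of -0.97 ± 0.50 was not called (adjusted p = 0.834), nor was that by exon coverage, -0.82 ± 0.35 (adjusted p = 0.691). By exon coverage 11 genes were called in both lines, among them Chrnb1, Myl1, Nmrk2, Serinc2 and Tpm2, which were called in 1 line or in neither by TPM. Exon coverage called 18 genes in KO1 (0.23%), 14 of them higher (0.179%), and 24 in WT (0.307%), all higher.

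**Figure D3:**
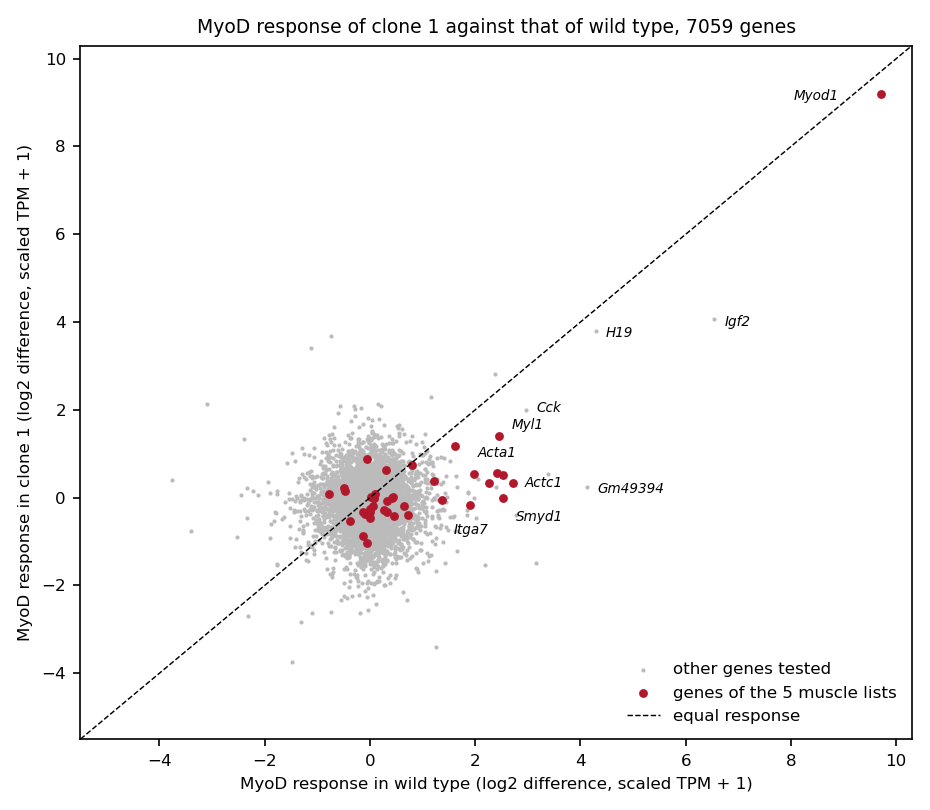
MyoD response of each of 7059 genes in KO1 (y axis) against that in WT (x axis), both as log2 differences of scaled TPM + 1, with genes of the 5 muscle lists in red and equal response as a dashed line. Igf2 and Gm49394 lie far below the line, H19 and Myod1 near it, and Smyd1, Actc1, Acta1 and Itga7 lie along the WT axis with a KO1 response under 1.

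Several of the named differences were large by TPM only. Setd5, a chromatin regulator, had 1.00, 1.35, 4.77 and 2.35 scaled TPM in KO1 with MyoD and 13.4, 16.3, 7.47 and 4.97 in WT with MyoD, and differed by -2.94 ± 0.57 (adjusted p = 0.119). By exon coverage all 16 libraries lay between 2.94 and 5.09, and the difference was -0.09 ± 0.22. Nrd1, a metalloendopeptidase, had the most positive difference of the named genes, 5.23 ± 0.97 by TPM (adjusted p = 0.0930). Exon coverage made that 0.33 ± 0.21. Zeb2, a transcription repressor, went to -0.25 ± 0.25 by exon coverage, against 3.74 ± 1.12 by TPM. Serinc2, a member of the serine incorporator family, was listed at 0 in all KO1 libraries and differed by -1.97 ± 0.41, but by exon coverage MyoD raised it in both lines and the difference was -0.48 ± 0.26. B4galnt1, a ganglioside enzyme, went likewise to -0.84 ± 0.26, against -2.26 ± 0.46 by TPM.

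Of the 6 genes named above 0, Bag1 and Tmem119 had a difference of at least 1 by both values, and neither difference was called. Bag1, a cofactor of heat shock proteins, had exon coverage of 6.67, 5.73, 6.17 and 8.96 in KO1 with MyoD and 3.82, 4.36, 3.29 and 4.28 in WT with MyoD. Without MyoD it had 1.95, 3.28, 3.28 and 4.35 in KO1 and 4.42, 5.34, 4.66 and 4.62 in WT. By exon coverage KO1 was thus above WT with MyoD and below it without, with no overlap on either side. By TPM the infected lines overlapped, at 2.81, 5.73, 6.22 and 6.66 in KO1 and 4.22, 3.0, 2.87 and 4.58 in WT. The difference was 1.14 ± 0.25 by exon coverage (adjusted p = 0.216) and 2.14 ± 0.49 by TPM (adjusted p = 0.236). Tmem119, a membrane protein of bone-forming cells, differed by 1.76 ± 0.55 by TPM and 1.67 ± 0.51 by exon coverage (adjusted p = 0.606 and 0.576). Its infected lines overlapped. Plscr4, a phospholipid scramblase, and Zmym3, a zinc finger protein, shrank by exon coverage, to 0.48 and 0.29, against 2.11 and 1.55 by TPM.

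**Figure D4:**
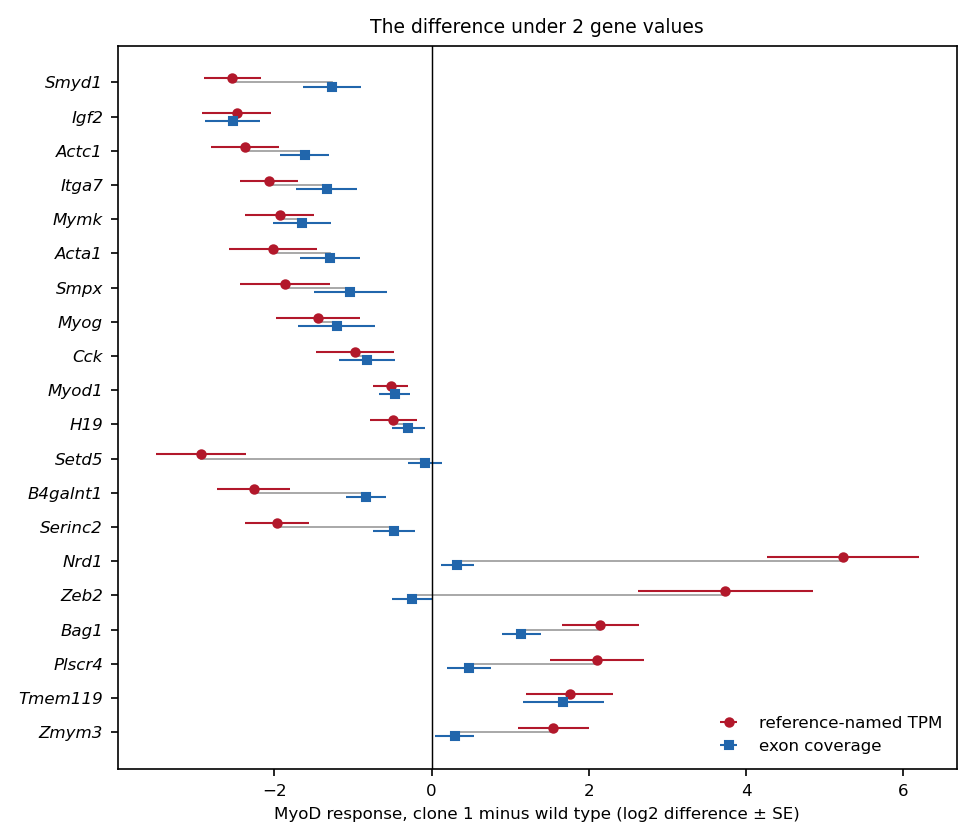
Difference of the MyoD response, KO1 minus WT (x axis, log2 difference with SE), for 20 named genes by reference-named TPM (circles) and by exon coverage (squares). The muscle genes and Igf2 stay below 0 by both values, whereas Setd5, Nrd1 and Zeb2 move to near 0 by exon coverage.

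KO1 also had 11 genes called lower with MyoD by TPM, and WT had none. Numa1, a protein of the mitotic spindle, had 0.0455, 1.65, 0.310 and 0.0846 scaled TPM in KO1 with MyoD and 5.16, 5.88, 5.86 and 5.36 in KO1 without. Its exon coverage was 11.9, 12.3, 13.4 and 9.03 in KO1 with MyoD and 12.7, 14.0, 13.2 and 12.2 in KO1 without, a log2 response of -0.16 that was not called (adjusted p = 0.655), and the difference to WT was -0.17 ± 0.17. Of the 11, exon coverage tested 9 and called 1, Snap29, a membrane fusion protein. Snap29 had exon coverage of 1.79, 2.93, 0.750 and 2.25 in KO1 with MyoD and 5.87, 10.2, 5.04 and 6.53 in KO1 without. WT had 2.43, 2.22, 4.14 and 3.15 with MyoD and 6.60, 4.31, 2.81 and 2.74 without. The difference of -1.13 was not called (adjusted p = 0.576).

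Outside muscle, no list had a called member apart from Igf2 by exon coverage. Of 31 tested genes of fibroblasts and the extracellular matrix, 2 were lower and 0 higher at an unadjusted p under 0.05, near the 3.98% and 2.24% of all genes, with a median of -0.07. Col1a1, the main collagen of fibroblasts, had 40.5, 39.8, 44.6 and 36.9 scaled TPM in KO1 with MyoD and 89.8, 86.8, 103 and 108 in WT with MyoD. Without MyoD it had 38.8, 39.8, 36.6 and 32.1 in KO1 and 105, 98.3, 95.0 and 101 in WT. KO1 was below WT on both sides without overlap, and the difference of the responses was 0.18 ± 0.17 (adjusted p = 0.930), and 0.22 ± 0.15 by exon coverage. Pdgfra, a growth factor receptor of mesenchymal cells, differed by -1.27 ± 0.43 by TPM and -0.70 ± 0.24 by exon coverage, and was not called.

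The interferon list had a median of -0.46 over 17 members and -0.43 by exon coverage over 19. Ifi44, an interferon-induced gene, was called in WT and not in KO1, and differed by -1.74 ± 0.46, but by exon coverage by -0.52 ± 0.40. The 12 tested genes of bHLH inhibitors and Notch, which include the MyoD antagonist Id1, had a median of -0.41 by TPM and -0.03 by exon coverage. Id1 itself differed by 0.29 ± 0.33, and by 0.30 ± 0.25 by exon coverage. The 21 tested immediate early genes had 0 members at an unadjusted p under 0.05 and a median of 0.03. Egr1, one of them, differed by 0.12 ± 0.22, and Ccn1, a YAP target, by -0.37 ± 0.19. By exon coverage these were 0.15 ± 0.22 and -0.33 ± 0.18. Mki67, a proliferation marker, was under the filter by TPM and differed by 0.41 ± 0.36 by exon coverage.

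**Figure D5:**
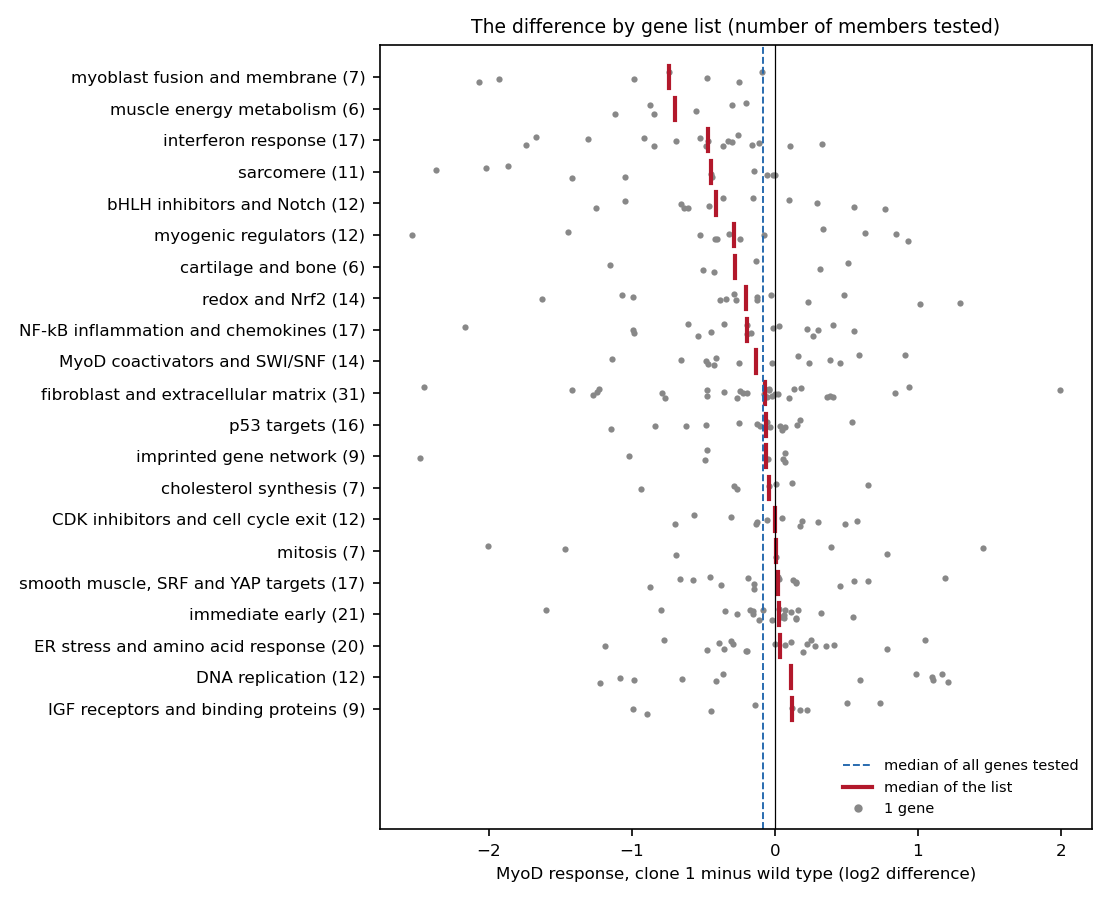
Difference of the MyoD response, KO1 minus WT (x axis, log2 difference), of each tested member of the 21 gene lists with at least 5 members tested (points), with the median of each list in red and that of all genes as a dashed blue line. Of these 21, the fusion, energy, interferon and sarcomere lists have the lowest medians by TPM, and the calcium and nerve-muscle junction list, with 3 members tested and a median of -0.66, is not drawn. The lists that spread around 0 include immediate early and matrix genes.

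The plasmid did not change the difference of any gene past the threshold (0 of 7059, limma with 1 mean per group, 342 genes, 4.84%, at an unadjusted p under 0.05). In the fit without KO1 replicate 2 with MyoD alone, 26 genes passed. For Igf2 the difference was -3.0 with plasmid and -1.96 without (unadjusted p of the change 0.192), for Smyd1 -2.99 and -2.08, and for Actc1 -1.78 and -2.96. The signs were alike in both arms for these 3, but within either arm alone none of them was called. By exon coverage the change with plasmid was -0.68 for Igf2, 0.50 for Smyd1 and 0.95 for Actc1, none called, and for Smyd1 opposite in sign to that by TPM.

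Clone 2 shares all 8 WT libraries with this comparison, so its values are set beside those of KO1 without a count of agreement. Its libraries held 2.68 to 7.89% ribosomal RNA window, and 11879 genes were tested there, of which 648 differed from WT in their response. For Igf2 the difference was -4.08 in clone 2 (adjusted p = 0.000249), beside -2.48 in KO1, for Smyd1 -3.78 beside -2.54 and for Actc1 -2.83 beside -2.37. Myog differed by 1.34, Acta1 by 0.83 and Cck by 1.15 in clone 2, beside -1.45, -2.02 and -0.97 in KO1, and by TPM none of these 3 was called in either clone. By exon coverage the differences in clone 2 were called for Myog (1.56, adjusted p = 0.00402) and Cck (1.25, adjusted p = 0.0177) and not for Acta1 (0.90), while in KO1 none was called, at -1.21, -0.82 and -1.29. The exon coverage differences in clone 2 were -3.66 for Igf2, -2.77 for Smyd1 and -2.06 for Actc1, beside -2.53, -1.27 and -1.62 in KO1. The Myod1 response differed from WT by -1.66 in clone 2 (adjusted p = 0.000212, limma), and by -1.54 by exon coverage, beside -0.52 and -0.47 in KO1. Clone 2 with MyoD had 303, 265, 289 and 287 for Myod1. These are scaled over all 24 libraries, so they are not on the scale of the KO1 and WT values above.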

How the data were processed

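PolyA RNA of 16 libraries was analysed, 2 in each of 8 groups. Per the submitters' processing notes, reads went through bcl2fastq 2.19, Trimmomatic 0.36, HISAT2 2.1.0, SAMtools 1.3 and StringTie 1.3.3 on mm10. Per the file headers, StringTie 2.1.2 assembled each library on the GENCODE annotation. The authors deposited TPM, FPKM and coverage per transcript, and no read counts. The kit does not mark strand, so overlapping and antisense genes are uncertain. Depth is the aligned sequence per library, from the ratio of coverage to FPKM.

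TPM was summed per gene over transcripts with a reference name and scaled by the median of ratios over 5645 genes. Genes with at least 1 scaled TPM in at least 4 libraries were tested, 7059 of 35260. limma 3.58.1 (R 4.3.3, trended variance, 11 residual degrees of freedom) was fitted to log2(scaled TPM + 1) with line, MyoD, their interaction and plasmid. A gene was called at an adjusted p under 0.05 (Benjamini-Hochberg) and a log2 change of at least 1. The change of the difference with plasmid used 1 mean per group. Exon coverage came from bedtools 2.31.1. The fit was tested on simulated data. Other scalings, pseudocounts, filters, models, the plasmid arms and leaving out each library were tried.

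The libraries were chosen by their labels, and the gene lists with earlier results of these data known. Named genes were a set of muscle, imprinted and fibroblast genes, the calls, up to 6 genes in each direction by unadjusted p whose highest set averaged at least 5 scaled TPM, and up to 4 per list. Gm49394, Tpm2, Myl1, Atp2a1, Chrnb1 and Snap29 were named after their values were seen. Clone 2 was used only for the values set beside KO1.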

Additional observations from a re-analysis of the deposited data

Results flagged for a closer look

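The MyoD response differed between KO1 and WT by the test of the difference itself by TPM for Gm49394 (-3.89) and Smyd1 (-2.54). Both passed the level filter only through WT with MyoD, Gm49394 cannot be told apart from Igf2, and Smyd1 was not called by exon coverage (-1.27, adjusted p = 0.576, limma). An unnamed transcript at the LncMyoD locus, outside the gene values used, was present in all 8 plasmid libraries, with a lowest level of 2.64 TPM, and was 0 in the 8 without plasmid.

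In 197 sets of 4 libraries examined, 18 had a library whose gap to the next was over 0.829 of the range of its set. Chance gives such a gap in about 1 set in 20 where values are normally distributed. For Actc1, Myog, Acta1, Mymk and Tmem38a the other libraries were at 0. The gap is then the whole range, and that rate does not apply. Among infected KO1 libraries, replicate 2 without plasmid was high for Myog (3.38 scaled TPM), Acta1 (3.10) and Lrp4 (1.27). Replicate 1 with plasmid was high for Actc1 (1.57), Mymk (1.45) and Plagl1 (1.14), and replicate 2 with plasmid was low for Dcn (0). Replicate 1 without plasmid was low for Cck (0.684) and high in its mitochondrial share (2.20% of TPM). Among uninfected KO1 libraries, the plasmid libraries were high for Zmym3 (4.14), Tmem38a (2.22) and Aldoa (436), and an untreated one was low for Plagl1 (0). Among infected WT libraries, replicate 2 without plasmid was high for Nrd1 (8.32) and low for Aurkb (3.43) and Tyms (0.117), and replicate 1 was high for Numa1 (21.4). WT replicate 2 with plasmid alone was high for Ifi44 (2.41).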

How the results depend on the processing

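The count of genes whose response differed was 2. It was 4 with TPM as deposited, 1 with ribosomal and mitochondrial genes left out, 1 with a pseudocount of 0.1, 0 with a filter at 5 TPM, 17 with all 24 libraries and 0 with plasmid only. Without plasmid it was 3, all lower, and neither Smyd1 nor Gm49394 was among them. Leaving out each library gave 1 to 6. The KO1 response, 17 genes, gave 6 with TPM as deposited, 8 under quantile scaling, 3 with a pseudocount of 5, 6 with no filter, 79 with all 24 libraries, 4 without plasmid and 6 with it, and 8 to 29 when each library was left out. The WT response, 21 genes, gave 9 with a pseudocount of 5, 7 with a filter at 5 TPM, and 7 in each plasmid arm. The plasmid dependence, 0 genes, gave 1 under quantile scaling, a pseudocount of 5, no filter, locus transcripts added, exon coverage or no variance trend, 2 with all 24 libraries, and 0 to 26 when each library was left out, where the lone library of a group is assumed to vary like the others. The replicate numbers did not pair the libraries (28 correlations of deviations, -0.0571 to 0.05). With the replicate block the counts were 2, 12, 17 and 0. Signs turned for Myod1 under quantile scaling (0.36). With locus transcripts added they turned for Plagl1 (0.192), Creld2 (-0.051) and Cdh2 (0.368). By exon coverage they turned for Dcn (0.162), Zeb2 (-0.249) and Kirrel (0.00371). Without plasmid they turned for Dcn (0.0492), Lrp4 (-0.334), Kirrel (0.228) and Ttn (0.237), and with plasmid for Pfkm (0.202). Ttn also turned under quantile scaling (0.236) and a pseudocount of 5 (0.00373). Leaving out each library gave -0.88 to 0.253 for Dcn, -0.0569 to 0.229 for Egr1, -1.21 to 0.0693 for Kirrel and -0.43 to 0.221 for Ttn. The causes were not tested. Depth is known only as aligned bases, so no floor can be set on a value of 0.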
